A study of Homo sapiens with 6 samples.

Results

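The JAK kinases and STAT factors were followed in RPMI8226 cells, an established multiple myeloma line, by RNA-Seq of 6 libraries. The members were taken by symbol and Ensembl identifier from a table of 63677 genes, and 9 were found: the kinases JAK1, JAK2 and JAK3 and the transcription factors STAT2, STAT3, STAT4, STAT5A, STAT5B and STAT6. The other members of both families were not analysed here. Wild-type cells of this 1 line received either 100 nM GST, the glutathione-S-transferase tag alone (3 libraries), or 100 nM GST-PTR1, in which the tag is fused to PTR1, a domain of the extracellular matrix protein HAPLN1 (3 libraries). Both treatments lasted 6 hr, and both proteins had been produced in Escherichia coli and purified on glutathione beads. The paper measured bacterial LPS contamination with a Limulus assay. It reports a level some orders of magnitude under what its NF-κB binding assay can detect in these cells. The paper describes the 3 libraries of each treatment as biological replicates, and the labels number them as replicates.

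JAK kinases sit on the cytoplasmic tails of cytokine receptors. When a cytokine brings receptor chains together, the kinases phosphorylate each other, the receptor and STAT proteins, which pair through their SH2 domains, enter the nucleus and bind DNA. In plasma cells and myeloma, IL-6 acting through the gp130 receptor and STAT3 is the best known use of this pathway. STAT proteins are switched on by phosphorylation, which RNA-Seq does not measure, so the values here are mRNA levels and not activities.

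The libraries held between 15202503 and 23453473 counts with GST and between 22874133 and 44688737 with GST-PTR1, the deepest being GST-PTR1 library 4. Libraries are named by treatment and by the number in the deposited column (GST 3, 4 and 5, and GST-PTR1 2, 4 and 5), which could not be matched to the replicate numbers of the samples. With these totals, 3 counts were worth between 0.0671 and 0.197 CPM (counts scaled to library total). Of 10 plasma cell markers all were tested, with a summed level of 4001 to 4957 CPM with GST and 3317 to 3973 CPM with GST-PTR1. Their median log2 fold change was -0.01 in the edgeR fit described below, which does not scale by library totals alone. PRDM1 and SLAMF7 were higher (2 of 10, against 9.15% of all genes tested). SDC1, TNFRSF17 and XBP1 were lower (3 of 10, against 11.4%), and the others did not pass the test. Of 14 markers of T cells, myeloid cells, stroma, endothelium, erythroid cells and epithelium, 13 were matched. Their sum was 72.4 to 82.0 CPM with GST and 58.4 to 66.0 CPM with GST-PTR1, nearly all of it the epithelial marker EPCAM. The T cell marker CD2, the stromal marker COL1A1 and the myeloid marker MPO were at 0 in all 6 libraries, and 8 of the 13 had at most 3 counts in each library.

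With GST-PTR1, 5 of 9 genes (JAK2, JAK3, STAT3, STAT4 and STAT5A) were higher in edgeR's quasi-likelihood test (adjusted p under 0.05), against 9.15% of the 16926 genes tested. For these 5 genes the TMM-scaled libraries of the treatments lay apart, as they did for 40.4% of all genes tested in either direction and 19.2% in this one. The number lower was 0 of 9, against 11.4% of all genes tested, and it was 0 as well at an unadjusted p under 0.05 and with DESeq2 or limma voom. JAK3 and STAT3 were also at least 2-fold higher, as were 3.68% of all genes tested. The median log2 fold change of the 9 genes was 0.71, beside 0.01 over all genes tested. All 9 genes passed the filter on low counts. In bulk RNA, a change in the level per cell and a change in the share of cells that express a gene cannot be told apart.

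**Figure D1:**
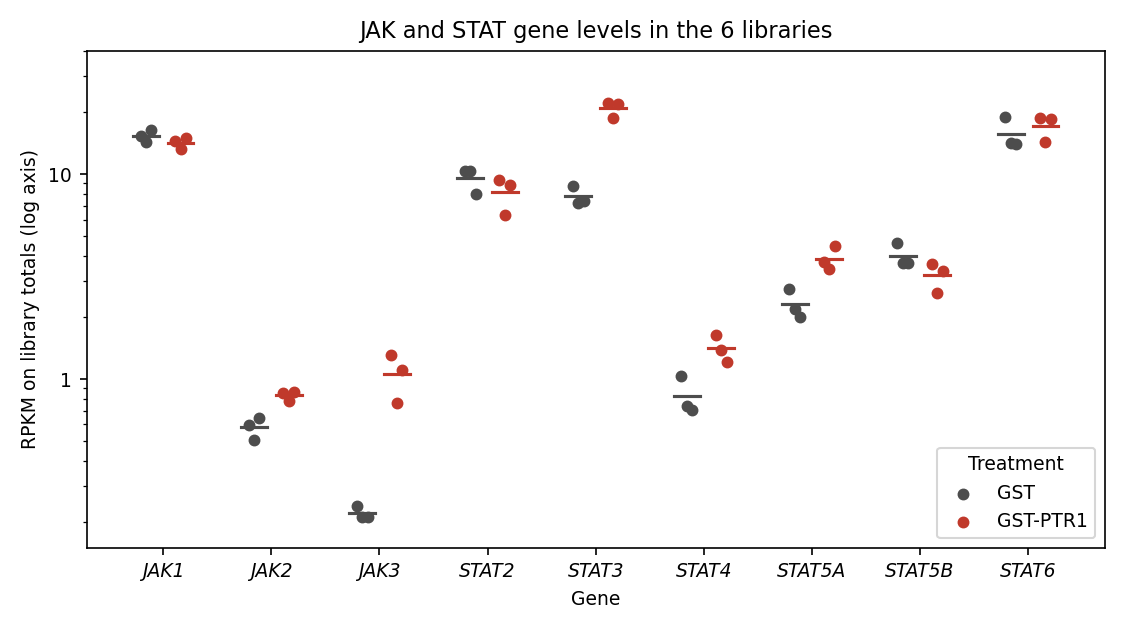
Levels of the 9 genes as RPKM on library totals (log axis), with 1 point per library and a line at the mean of each treatment. The libraries of the treatments lie apart for JAK2, JAK3, STAT3, STAT4 and STAT5A, with GST-PTR1 higher, and for STAT5B, with GST-PTR1 lower on this scale, and they overlap for the other 3 genes.

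JAK3, the kinase that pairs with the common gamma chain of the receptors for IL-2, IL-4, IL-7, IL-15 and IL-21, had the largest fold change of the 9. It is ENSG00000105639, on chromosome 19 of GRCh37 from 17935589 to 17958880 on the minus strand. Its level per length, as RPKM (counts scaled to library total and exon length), was 0.241, 0.213 and 0.212 in GST libraries 3, 4 and 5 and 1.30, 0.765 and 1.10 in GST-PTR1 libraries 2, 4 and 5. The treatments did not overlap, and GST-PTR1 library 4 was the lowest of its treatment. The mean rose from 0.222 ± 0.0167 to 1.06 ± 0.272 RPKM (SD, n = 3 each). On the TMM-scaled counts the log2 fold change was 2.43 (standard error 0.22, 95% interval 1.95 to 2.91, adjusted p = 1.87e-05 in edgeR's test), which is 5.39-fold. The values rest on 25 to 34 counts per GST library and 203 to 233 per GST-PTR1 library.

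The 250 bases before the RefSeq start of JAK3 are shown because JAK3 had the largest change. They lie at chr19:17847983-17848232 on the minus strand of GRCh38.p14, a later build than that of the count table. Capitals mark a match to the NF-κB consensus, 21 to 30 bases before the start.
JAK3: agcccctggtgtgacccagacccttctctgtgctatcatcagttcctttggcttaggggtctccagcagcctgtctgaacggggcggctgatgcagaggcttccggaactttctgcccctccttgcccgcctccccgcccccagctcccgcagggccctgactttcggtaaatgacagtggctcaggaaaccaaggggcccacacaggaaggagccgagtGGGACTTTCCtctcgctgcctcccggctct
On either strand, the NF-κB consensus was matched in 5.21% of the 35116 windows of this length before RefSeq starts, which gave a match for 6.28% of 27305 genes. Among the 9 members it was matched for JAK3 and for 1 of the 3 starts of STAT5A. The interferon-gamma activated sequence TTCNNNGAA, which STAT dimers bind, was in 6.57% of all windows and in none of the 17 windows of the members. A match or its absence describes the letters of these windows alone.

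JAK2, the kinase of the erythropoietin and growth hormone receptors and of several cytokine receptors, is ENSG00000096968 on chromosome 9 from 4985033 to 5128183 on the plus strand. It was at 0.596, 0.506 and 0.648 RPKM with GST and at 0.857, 0.778 and 0.869 RPKM with GST-PTR1. The treatments did not overlap, and the mean went from 0.584 ± 0.0721 to 0.835 ± 0.0493 RPKM. The log2 fold change was 0.71 (standard error 0.17, 95% interval 0.34 to 1.09, adjusted p = 0.0133 in edgeR's test). This call was the least stable of the 5. It was lost when library totals replaced the TMM factors (0.52, adjusted p = 0.0504) and without GST library 4 (0.62, adjusted p = 0.0668) or GST-PTR1 library 5 (0.70, adjusted p = 0.0518).

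JAK1, which serves the gp130, interferon and gamma chain receptors, had by far the most mRNA of the 3 kinases. It is ENSG00000162434 on chromosome 1 from 65298912 to 65432187 on the minus strand. Its level was 15.4, 14.4 and 16.4 RPKM with GST and 14.6, 13.2 and 14.9 RPKM with GST-PTR1. The treatments overlapped, and the log2 fold change of 0.08 (95% interval -0.14 to 0.30, adjusted p = 0.594 in edgeR's test) did not pass. On library totals the sign was reversed (-0.12), also without passing.

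The summed RPKM of the 3 kinases was 16.2 ± 1.09 with GST and 16.1 ± 1.18 with GST-PTR1 on library totals, and 15.2 ± 1.15 and 17.3 ± 0.557 on TMM-scaled totals. The JAK3 share was 1.48%, 1.41% and 1.23% with GST and 7.79%, 5.18% and 6.53% with GST-PTR1. It rose by 5.13 percentage points on average without overlap, and the JAK1 share went from 95.04% to 88.3%. The exact two-sided permutation test gave p = 0.1, the smallest that 3 libraries against 3 allow. A share within a library does not depend on how libraries are scaled.

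**Figure D2:**
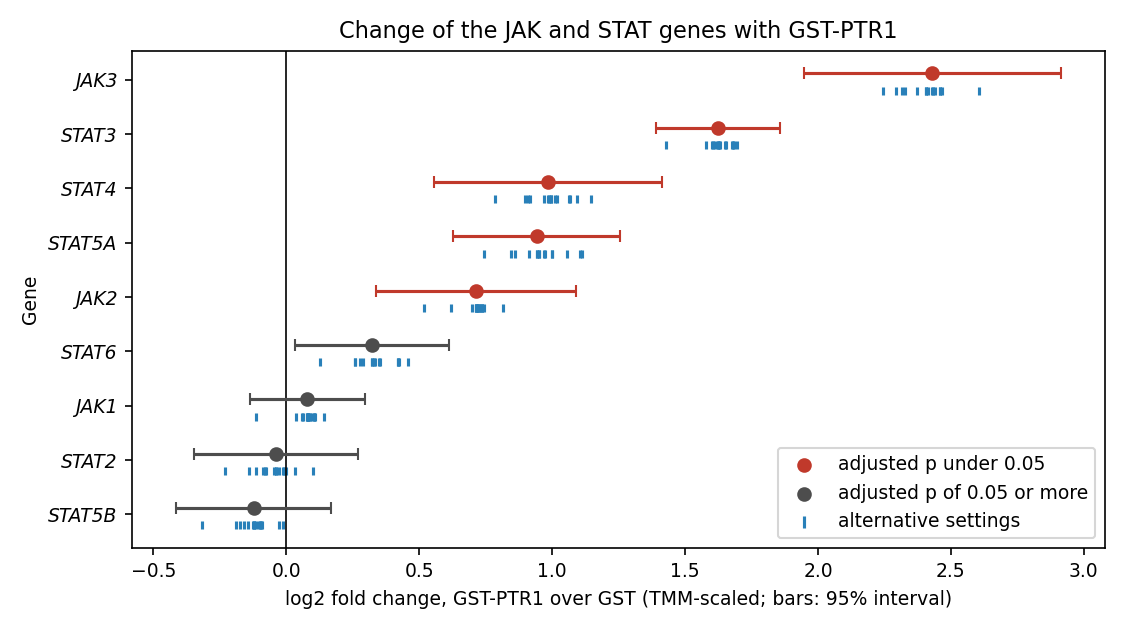
Log2 fold change of each gene, GST-PTR1 over GST, with its 95% interval from edgeR (points and bars) and its values under 15 other settings of the analysis (ticks). JAK3 and STAT3 lie farthest from 0 under each setting, and the intervals of JAK1, STAT2 and STAT5B include 0.

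STAT3, the factor downstream of IL-6, IL-10 and LIF, had the highest mean level of the STAT mRNAs with GST-PTR1. It is ENSG00000168610, on chromosome 17 from 40465342 to 40540586 on the minus strand. Its level was 8.77, 7.22 and 7.38 RPKM with GST and 22.3, 18.7 and 21.9 RPKM with GST-PTR1. The lowest GST-PTR1 library was well above the highest GST library. Its mean was 7.79 ± 0.851 RPKM with GST and 21.0 ± 1.94 RPKM with GST-PTR1. The fit gave a log2 fold change of 1.62 (standard error 0.11, 95% interval 1.39 to 1.86, adjusted p = 1.46e-06 in edgeR's test), or 3.08-fold. With 1175 to 1493 counts per GST library and 4489 to 7378 per GST-PTR1 library, it had the narrowest interval of the 5 genes that rose. STAT3 and JAK3 passed under each of the 15 alternatives, with log2 fold changes of 1.43 to 1.70 for STAT3 and 2.24 to 2.61 for JAK3.

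STAT5A and STAT5B are close paralogs that act downstream of IL-2, prolactin and growth hormone, and STAT5A was higher while STAT5B did not pass the test. STAT5A (ENSG00000126561, chromosome 17 from 40439565 to 40463961, plus strand) was at 2.74, 2.20 and 2.00 RPKM with GST and at 3.71, 3.44 and 4.45 RPKM with GST-PTR1. The treatments did not overlap, and the log2 fold change was 0.94 (standard error 0.14, 95% interval 0.63 to 1.26, adjusted p = 0.000936 in edgeR's test). STAT5B (ENSG00000173757, chromosome 17 from 40351186 to 40428725, minus strand) was at 4.61, 3.67 and 3.69 RPKM with GST and at 3.65, 2.63 and 3.35 RPKM with GST-PTR1. On library totals all 3 GST-PTR1 libraries were below the GST libraries, but on TMM-scaled totals the treatments overlapped. Its log2 fold change of -0.12 (95% interval -0.41 to 0.17, adjusted p = 0.542) did not pass in edgeR's test.

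Within each library, STAT5A made up 37.3%, 37.5% and 35.1% of the STAT5A and STAT5B sum with GST and 50.4%, 56.7% and 57.0% with GST-PTR1. STAT5B was thus the larger of the pair in each GST library and STAT5A in each GST-PTR1 library. The difference was 18.1 percentage points (36.6 ± 1.31% against 54.7 ± 3.72%, SD, n = 3 each, exact two-sided permutation p = 0.1, the smallest possible). Of the 50-base windows of STAT5A transcripts, 8.61% also occur in STAT5B transcripts. By the defaults of the counting program, reads that mapped to several places were not counted. Whether this lowered either level per length was not measured.

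STAT3, STAT5A and STAT5B lie side by side on chromosome 17. STAT3 and STAT5A are transcribed towards each other with 1380 bases between their ends, and the starts of STAT5A and STAT5B face away from each other across 10839 bases. STAT3 and STAT5A were higher, and STAT5B did not pass. Their promoter windows are shown to set these neighbours side by side: STAT3 at chr17:42388443-42388692 (minus strand), the third RefSeq start of STAT5A at chr17:42288248-42288497 (plus strand) and STAT5B at chr17:42276392-42276641 (minus strand), all in GRCh38.p14. Capitals again mark the NF-κB consensus, which was matched 210 to 219 bases before that STAT5A start and not in the windows of STAT3 and STAT5B.
STAT3: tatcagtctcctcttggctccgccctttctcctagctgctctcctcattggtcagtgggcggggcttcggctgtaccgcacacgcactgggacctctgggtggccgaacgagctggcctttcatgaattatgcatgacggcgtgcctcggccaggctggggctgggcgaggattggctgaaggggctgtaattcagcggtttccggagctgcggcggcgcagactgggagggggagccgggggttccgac
STAT5A: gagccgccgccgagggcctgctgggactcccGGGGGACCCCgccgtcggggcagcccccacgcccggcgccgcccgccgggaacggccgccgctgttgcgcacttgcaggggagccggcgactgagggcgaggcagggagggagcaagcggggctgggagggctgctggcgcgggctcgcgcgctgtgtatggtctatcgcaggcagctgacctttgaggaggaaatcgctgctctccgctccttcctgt
STAT5B: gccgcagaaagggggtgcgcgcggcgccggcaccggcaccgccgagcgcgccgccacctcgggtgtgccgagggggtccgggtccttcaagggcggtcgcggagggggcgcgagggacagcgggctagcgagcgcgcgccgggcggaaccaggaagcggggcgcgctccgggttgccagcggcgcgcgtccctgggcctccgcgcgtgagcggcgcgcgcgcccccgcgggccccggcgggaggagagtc
The G and C content of these windows was 64.4% for STAT3, 74.4% for the third start of STAT5A and 82.0% for STAT5B. The windows of the first and second STAT5A starts, not shown, had no match to the consensus and a G and C content of 54.8% and 65.6%.

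STAT4, which carries IL-12 signals in T and NK cells, was expressed at a low level. It is ENSG00000138378 on chromosome 2 from 191894302 to 192016322 on the minus strand. Its level was 1.04, 0.742 and 0.703 RPKM with GST and 1.65, 1.39 and 1.22 RPKM with GST-PTR1, from 60 to 74 and 149 to 264 counts per library. The treatments did not overlap, and the log2 fold change was 0.99 (standard error 0.19, 95% interval 0.56 to 1.41, adjusted p = 0.00488 in edgeR's test). STAT4 and STAT5A each passed under 14 of 15 alternatives and missed the threshold in the test against a fold change of 1.5 (adjusted p = 0.121 and 0.0609).

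STAT6 and STAT2 were abundant and did not pass the test. STAT6, the factor of IL-4 and IL-13 (ENSG00000166888, chromosome 12 from 57489191 to 57525922, minus strand), was at 19.1, 14.2 and 14.0 RPKM with GST and at 18.8, 14.3 and 18.6 RPKM with GST-PTR1. GST library 3 and GST-PTR1 library 4 each stood nearer to the other treatment, and the log2 fold change was 0.32 (95% interval 0.03 to 0.61, adjusted p = 0.105 in edgeR's test). It passed without either of those libraries (0.46, adjusted p = 0.0184, and 0.42, adjusted p = 0.0474). STAT2, the partner of IRF9 in the type I interferon response (ENSG00000170581, chromosome 12 from 56735381 to 56753939, minus strand), was at 10.3, 10.4 and 8.02 RPKM with GST and at 9.38, 6.32 and 8.85 RPKM with GST-PTR1. These ranges overlapped, and its log2 fold change was -0.04 (95% interval -0.35 to 0.27, adjusted p = 0.869).

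The summed RPKM of the 6 STAT genes was 40.3 ± 5.61 with GST and 54.9 ± 6.99 with GST-PTR1. STAT3 made up 18.8%, 18.8% and 20.6% of it with GST and 37.5%, 40.01% and 37.5% with GST-PTR1. Its share was 18.9 percentage points larger with GST-PTR1, without overlap (exact two-sided permutation p = 0.1, the smallest possible). The mean share of STAT6 went from 39.0% to 31.3% and that of STAT2 from 23.9% to 14.8%, while STAT5A went from 5.73% to 7.07%.

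**Figure D3:**
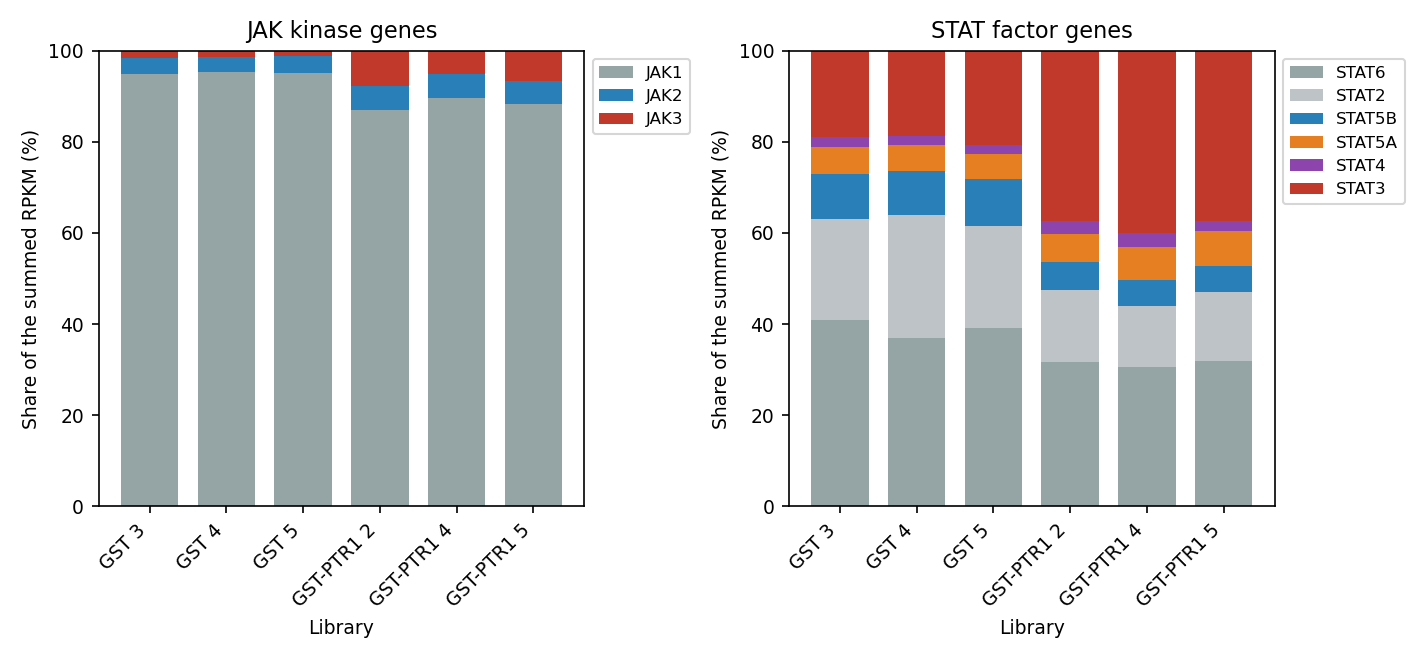
Share of each gene in the summed RPKM of the 3 kinase genes (left) and the 6 STAT genes (right), in percent, with 1 bar per library. JAK3 is under 2% of the kinase sum in each GST library and over 5% in each GST-PTR1 library, and STAT3 goes from 20.6% of the STAT sum or less to 37.5% or more.

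Per length, the order of the 9 genes with GST was STAT6, JAK1, STAT2, STAT3, STAT5B, STAT5A, STAT4, JAK2 and JAK3. STAT6 overlapped JAK1 and STAT2 overlapped STAT3, and the other neighbours in the order did not overlap. With GST-PTR1 the order was STAT3, STAT6, JAK1, STAT2, STAT5A, STAT5B, STAT4, JAK3 and JAK2. STAT3 moved from the fourth place to the first, where its libraries overlapped those of STAT6 on library totals and not on TMM-scaled totals. On library totals STAT6 also overlapped JAK1, and STAT5A overlapped STAT5B, while on TMM-scaled totals neither pair overlapped. STAT4, JAK3 and JAK2 overlapped in turn on both scales.

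The ligands of the pathway had few counts with GST. Of 39 cytokine genes listed, 16 passed the filter on low counts, and another 16 had at most 3 counts in each library. Higher levels were found for 11 of the 16 tested, all at least 2-fold, and 0 were lower in edgeR's test (1 at an unadjusted p under 0.05, and 0 with DESeq2 or limma voom). Of all genes tested, 9.15% were higher, 3.68% at least 2-fold higher and 11.4% lower. Several of the 11 ligands passed the filter only through the GST-PTR1 libraries, and 5 were called when each library had to hold at least 10 counts. LIF, a gp130 cytokine, went from 1.67 ± 0.0659 to 90.6 ± 12.2 CPM (log2 fold change 5.95). EBI3, a subunit of IL-27, and IL10 had log2 fold changes of 6.73 and 8.60. These rest on only 8 to 11 counts per GST library for EBI3 and 16 to 19 for IL10. IL6 held 0 to 2 counts per GST library and was at least 36.2-fold higher with GST-PTR1, set against 3 counts per library.

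Of 42 receptor genes, 26 were tested, 10 were higher, 1 was lower and 15 did not pass, with a median log2 fold change of 0.26. Of all genes tested, 9.15% were higher and 11.4% lower. When every library had to hold at least 10 counts, 9 of 24 receptors tested were higher and 1 was lower. Of the group of receptor chains that signal with the common gamma chain and JAK3, 5 of 7 tested were higher, beside that 9.15%. They were IL2RA, IL15RA, IL2RG, IL21R and IL4R. IL2RA passed the filter on low counts only through the GST-PTR1 libraries, so it could only be called higher. IL2RG, the common gamma chain itself, went from 6.42 ± 0.986 to 10.7 ± 0.725 CPM (log2 fold change 0.93, adjusted p = 0.00194 in edgeR's test). IL2RA, the alpha chain of the IL-2 receptor, went from 1 to 4 counts per GST library to 235 to 796 counts per GST-PTR1 library, a log2 fold change of 7.40. IL15RA rose by a log2 fold change of 1.44.

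Among the receptors of the gp130 group, IL6R was 1 of 4 tested that passed (0.60, adjusted p = 0.00425 in edgeR's test). The shared chain IL6ST was at 151 ± 17.9 and 145 ± 7.42 CPM on library totals. On TMM-scaled counts its log2 fold change was 0.14, without passing (adjusted p = 0.405 in edgeR's test). Of the interferon and IL-10 group, 2 of 8 passed, IFNGR2 (1.17) and IFNLR1 (1.05). CSF2RB, the shared chain of the IL-3, IL-5 and GM-CSF receptors, which signal through JAK2, was also higher (1.39), as was the prolactin receptor gene PRLR (1.19). EPOR, the erythropoietin receptor, was the gene that was lower (-0.55, adjusted p = 0.0284 in edgeR's test), and it missed the threshold without GST library 3 or 5 and without GST-PTR1 library 4 or 5.

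The genes listed as inhibitors of the pathway, which are not feedback genes alone, did not move as 1 group. Of 19 genes listed, 18 were matched and tested, 5 were higher, 2 were lower and 11 did not pass, with a median log2 fold change of 0.04. Of all genes tested, 9.15% were higher and 11.4% lower, and the share of inhibitors that were lower is near the latter. SOCS3, which blocks gp130-bound JAKs, held 21 to 32 counts per GST library and 5353 to 7457 per GST-PTR1 library, a log2 fold change of 7.44. SOCS1 (3.47) and the adaptor SH2B3 (0.85), a brake on JAK2, were also higher, as were the phosphatase genes PTPN2 (0.63) and PTPRC (0.66). The ubiquitin ligase CBL (-0.50, adjusted p = 0.0420) and the phosphatase PTPN6 (-0.66, adjusted p = 0.0444, with overlapping treatments) were lower in edgeR's test. These calls were not stable, as 0 inhibitors were lower without GST library 3, GST-PTR1 library 4 or GST-PTR1 library 5, and 1 was lower without GST library 4 or 5. CISH and SOCS2, the usual feedback genes of STAT5, were at 19.99 ± 3.57 against 14.1 ± 4.05 CPM and at 2.81 ± 0.406 against 1.78 ± 0.0677 CPM, without passing (adjusted p = 0.224 and 0.146).

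Of 13 partners and cofactors of STAT proteins, all tested, 2 were higher, the AP-1 factor JUN (1.11) and the STAT interactor NMI (0.61), and 11 did not pass. This share is near the 9.15% of all genes tested that were higher. The number lower in edgeR's test was 0, also at an unadjusted p under 0.05 and with DESeq2 or limma voom. IRF9, the partner of STAT2, was at 9.58 ± 2.17 and 8.90 ± 0.231 CPM on library totals. On TMM-scaled counts its log2 fold change was 0.10, without passing (adjusted p = 0.699 in edgeR's test).

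Of 30 genes known to be regulated by STAT factors, 23 were higher, 20 of them at least 2-fold, and 7 did not pass, with a median log2 fold change of 1.52. Of all genes tested, 9.15% were higher and 3.68% at least 2-fold higher. The list was written with earlier results of these data known, so the count gives no measure of STAT-regulated genes as a group. In edgeR's test 0 of the 30 were lower, also at an unadjusted p under 0.05 and with DESeq2 or limma voom. Besides SOCS3, the smallest adjusted p values were those of GBP1, a guanylate-binding protein (3.81), and BATF, an AP-1 factor (4.85). BCL3 was higher as well (3.21). Of these 30 genes, 6 also stand in the lists above, and many are known to respond to NF-κB too, and which factor moved them was not tested.

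**Figure D4:**
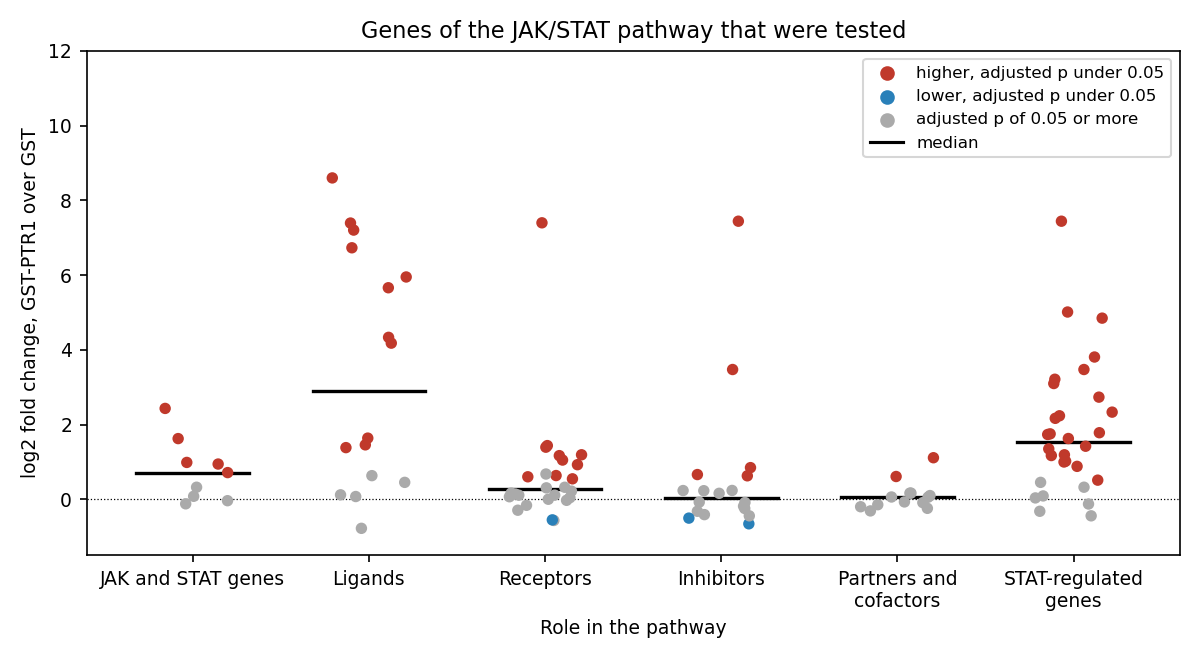
Log2 fold change, GST-PTR1 over GST, of each tested gene by its role in the pathway, with a line at the median of each role. The medians are 0.71 for the JAK and STAT genes, 2.91 for ligands, 0.26 for receptors, 0.04 for inhibitors, 0.06 for partners and cofactors and 1.52 for STAT-regulated genes.

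With the 3 ligands that were at the limit of detection with GST (IL6, IL27 and CSF3) set to their lower bounds, the ligand median was 2.64. The ligand median also depended on the filter, since genes that passed it only through the GST-PTR1 libraries had to differ. It was 1.46 over the 9 ligands with at least 10 counts in every library, 1.71 over the 32 with at least 1 count in any library, and 1.41 over those 32 with DESeq2. It ranged from 2.69 to 4.24 when 1 library was left out, and it gives no measure of the ligands as a group.

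The nearest tested genes on the chromosome were compared with the members. B3GNT3, the nearest tested gene below JAK3, was lower (-1.57, adjusted p = 0.0121 in edgeR's test). IL23A, which encodes the p19 subunit of IL-23, lies 1188 bases from STAT2 and was higher (1.38, adjusted p = 0.0146), where STAT2 itself did not pass. NAB2, which overlaps the end of STAT6 on the other strand, was lower (-1.496, adjusted p = 0.00109). RCL1 near JAK2 was higher (0.32, adjusted p = 0.0465), and GHDC near STAT5B was lower (-0.39, adjusted p = 0.0331). Reads were counted by strand. Of the JAK2 exons 4.52% overlap another gene on the same strand, and for the other 8 members the overlap was 0.

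The genes whose pattern over the 6 libraries was most like that of each member that rose were found by Pearson's r of log2 CPM among 9481 genes, as a description, since the 6 points share their treatment. For JAK3 they were the mitochondrial phosphatase gene PPM1K (r = 0.997) and the deubiquitinase gene USP12 (0.997). For STAT3 they were the survival gene BCL2 (0.999) and ELL2, an elongation factor of antibody-secreting cells (0.999). For STAT5A they were MTMR4 (0.997) and ZHX2 (0.996). For JAK2 they were RIF1 (0.999) and TMEM30A (0.997), and for STAT4 DESI1 (0.994) and DDX31 (0.990). An r over 0.98 was reached by 237 genes for STAT3, 187 for JAK3, 53 for STAT5A, 44 for JAK2 and 10 for STAT4.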

How the data were processed

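The authors deposited raw counts of reads per gene, made with featureCounts 1.5.0-p1 on GRCh37 (hg19, gene models of Ensembl release 75), counting the reverse strand. By that program's defaults, reads placed on several sites or genes were left out. The aligner is not given in the sources used here. Symbols were matched for 52181 of 63677 genes. Differences were tested with edgeR 4.0.16 in R 4.3.3 (TMM factors, filterByExpr, glmQLFit, glmQLFTest). Adjustment was by Benjamini-Hochberg over all 16926 genes that passed the filter, and the script was first tested on simulated data. RPKM and CPM were computed on library totals, with the exon lengths the authors deposited, and fold changes on TMM-scaled counts. Alternatives used DESeq2 1.42.0, limma voom 3.58.1, other scalings and filters, and left out each library. P-values measure the spread between these libraries, and floors cover counting error only. Within a treatment no libraries agreed within sampling noise (smallest chi-square per gene 8.37).

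The members and gene lists were chosen with earlier results of these data known. Named were the members, the 3 genes higher and 2 lower with the smallest adjusted p in each list, and some but not all other list members that passed the test. The nearest tested neighbours and the 2 genes of most similar pattern with a mean of at least 10 CPM were named as well. BCL3, CISH, SOCS2, IRF9, IL6ST and IL6 were named after their values were seen. Some neighbouring genes are not reported here. RefSeq promoter windows (GRCh38.p14) were matched for all 9 members, and 50-base windows came from GENCODE 29 transcripts.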

Additional observations from a re-analysis of the deposited data

How the results depend on the processing

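The 15 alternatives kept JAK3 and STAT3 past the threshold, and the shares of JAK3, STAT3 and STAT5A kept their direction in each alternative run. With library totals, which shift the median of all genes to -0.19, 927 genes were higher and 3795 lower, JAK1 turned to -0.12 (adjusted p = 0.463), JAK2 fell short (0.52), and 3 receptors, 5 inhibitors and 1 STAT-regulated gene were lower. Against a fold change of 1.5, 563 genes were higher and 346 lower, with 2 of the 9 members, 6 receptors, 2 inhibitors and 1 cofactor higher and 0 receptors and 0 inhibitors lower. JAK2 (0.71, adjusted p = 0.686), STAT4 (0.99, adjusted p = 0.121) and STAT5A (0.94, adjusted p = 0.0609) then missed the threshold. A filter of at least 1 count in any library gave 2608 higher genes and put STAT6 past the threshold (0.35, adjusted p = 0.0346), and one of at least 10 counts in every library left 5 ligands higher. Leaving out 1 library at a time gave 1178 to 1818 lower genes, 4 to 6 members higher, 0 to 1 receptors and 0 to 3 inhibitors lower, and 1 STAT-regulated gene lower without GST-PTR1 library 2. JAK2 ranged from 0.62 to 0.82, STAT6 from 0.26 to 0.46 and STAT2 from -0.14 to 0.10, with STAT2 positive without GST library 4 (0.03) or GST-PTR1 library 4 (0.10).

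A paired fit of all 6 libraries was not run, since the column numbers could not be matched to the replicate numbers. With the 4 libraries that share a column number, chosen after seeing the data, the fit with that number as a replicate block called 1603 genes higher and 1715 lower, against 1790 and 1848 without the block. The block gave 0 receptors lower, and STAT6 passed both with it (0.42, adjusted p = 0.0355) and without it (0.43, adjusted p = 0.0247). The causes of these shifts were not tested. JAK3 had the fewest counts of the members in the GST libraries (25 to 34 each).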
